A study of Mus musculus with 2 samples.

Results

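The Slc25 genes encode the mitochondrial carriers, and 33 of them were described in gastrocnemius muscle by long-read RNA sequencing, in which each read comes from 1 cDNA. Members were the annotated protein-coding genes named Slc25a and a number that had at least 1 read in both libraries. They are 33 of the 47 such genes of the GENCODE M21 annotation, and 33 of the 11160 annotated genes of any kind with reads in both libraries. The series has a single group, the calf muscle of male B6CASTF1/J mice (first-generation offspring of C57BL/6 and CAST parents) aged 14 days, with no treatment and no introduced allele named. It holds 2 biological replicates from 2 µg of RNA each. The labels give 1 donor identifier for both replicates while the biosample names speak of several males, so whether each was a pool of animals, or came from separate animals, is not stated. Each SD below is therefore the spread between these libraries and may in part be technical.

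Mitochondrial carriers are small proteins of the inner mitochondrial membrane that exchange metabolites between the matrix and the cytosol. In muscle the ADP/ATP carrier and the phosphate carrier supply ATP synthase with its substrates and bring the ATP out. The aspartate/glutamate and oxoglutarate/malate carriers form the malate-aspartate shuttle, which moves reducing equivalents from glycolysis into the mitochondria, and the carnitine/acylcarnitine carrier brings fatty acids in for oxidation.

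Sequences are shown where the family's paralogs and isoforms are told apart at the level of the transcript. Slc25a3, the phosphate carrier (chromosome 10, 91116574 to 91124059 on mm10, minus strand), has alternative forms of its exon 3. Exon 3A is 125 bases long (chr10:91122207-91122331, model Slc25a3-206) and exon 3B is 122 bases long (chr10:91121922-91122043, model Slc25a3-201). Both lie wholly in the coding sequence, and 77 of their 122 aligned bases are identical (63.1%). Their sequences, from the GENCODE M21 transcripts and written 5′ to 3′ on the gene's strand, follow with the bases that differ or are unpaired in capitals.
exon 3A: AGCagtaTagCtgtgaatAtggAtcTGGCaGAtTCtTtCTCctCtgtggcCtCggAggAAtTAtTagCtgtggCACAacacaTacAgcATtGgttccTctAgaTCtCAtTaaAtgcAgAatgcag
exon 3B: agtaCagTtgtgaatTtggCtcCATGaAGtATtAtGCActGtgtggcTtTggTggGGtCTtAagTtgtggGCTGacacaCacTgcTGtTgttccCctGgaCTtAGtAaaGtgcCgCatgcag

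The ADP/ATP carriers Slc25a4 (chromosome 8, 46206797 to 46211284, minus strand) and Slc25a5 (chromosome X, 36795651 to 36798807, plus strand) are the family's closest abundant paralogs. Over their coding sequences of 897 bases each, 695 bases are identical (77.5%). The window of 90 coding bases where they differ most, coding bases 397 to 486 of both in the second exon, is shown because it separates the genes best. It holds 33 differences, in capitals, which is denser than over the whole coding sequence. The window lies at chr8:46209134-46209223 in Slc25a4 and at chrX:36797128-36797217 in Slc25a5.
Slc25a4: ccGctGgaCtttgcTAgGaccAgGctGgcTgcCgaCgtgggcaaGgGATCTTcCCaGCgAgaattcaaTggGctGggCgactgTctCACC
Slc25a5: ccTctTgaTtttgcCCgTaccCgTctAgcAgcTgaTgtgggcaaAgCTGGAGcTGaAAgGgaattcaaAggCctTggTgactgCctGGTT

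Replicate 1 held 1094607 reads and replicate 2 held 626289 after ERCC spike-in RNAs were set aside, and levels are given as CPM, the reads of a gene per 1000000 such reads of its library. A count of 0 allows up to 3 reads, which is 2.74 CPM in replicate 1 and 4.79 CPM in replicate 2. All 10 fast-fibre markers were detected, with a summed level of 280292 ± 23678 CPM (SD, n = 2). The cardiac list held 6 reads in each library and the hepatocyte list none. Markers of some other cell types in the muscle differed between the libraries. The 6 fibroblast markers summed to 7609 CPM in replicate 1 and 3029 CPM in replicate 2. The summed level of the 5 erythroid markers with reads was 771 and 1423 CPM. Endothelial markers (6 genes) summed to 386 and 259 CPM and slow-fibre markers (7 genes) to 1952 and 2556 CPM. The slow-fibre markers did not move together. Tnnt1 had 418 and 1214 CPM, and Myl2, Myl3, Tnni1 and Tnnc1 were higher in replicate 2 by smaller amounts. Myh7 (630 and 346 CPM) and Atp2a2 (153 and 73.4 CPM) were higher in replicate 1. For the 6 macrophage markers the libraries lay close together, at 72.2 and 68.7 CPM. The 6 Schwann cell markers summed to 301 and 546 CPM, and the 7 adipocyte markers, of which Lep and Ucp1 had no read, to 116 and 257 CPM. Most of the adipocyte sum was 1 gene, Fabp4, with 125 of 127 and 130 of 161 reads. The part of these cell types in the differences between libraries given below was not tested. In bulk RNA, fewer cells of a type and less RNA per cell cannot be told apart.

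The family took 1.45% of the reads of replicate 1 (95% Clopper-Pearson interval 1.43 to 1.47, 15877 reads) and 1.77% of those of replicate 2 (1.74 to 1.80, 11095 reads). Its summed level was 16110 ± 2270 CPM (SD, n = 2). Slc25a4, the ADP/ATP carrier of heart and skeletal muscle, held 80.6% and 82.4% of these reads and was the ninth most abundant gene of the muscle by mean CPM. The 5 most abundant members together held 96.2% and 97.3%. The other 28 members shared 596 and 305 reads, or 516 ± 40.7 CPM in sum. The median member stood at 18.3 CPM in replicate 1 and 11.2 CPM in replicate 2, beside 12.8 and 11.2 CPM for all genes with reads in both libraries. Detection was 33 of 47 for the family (70.2%), beside 10341 of 22028 protein-coding genes (46.9%).

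**Figure D1:**
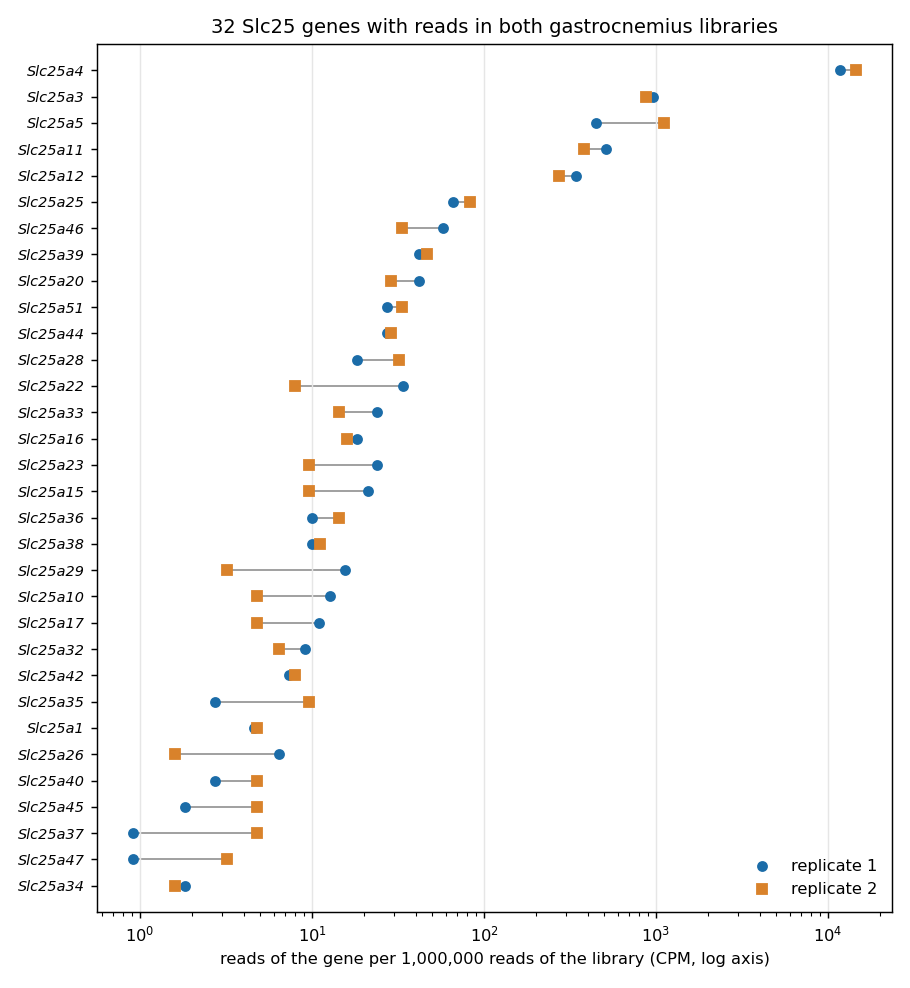
Level of 32 members in CPM (log axis) in each library, ordered by the mean, with a circle for replicate 1, a square for replicate 2 and a line joining them. Slc25a4 stands apart at the top, Slc25a3, Slc25a5, Slc25a11 and Slc25a12 follow at 308 CPM or more on average, and the remaining members lie below 100 CPM.

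Among the nucleotide and phosphate carriers, Slc25a4 had 12802 reads (11695 CPM) in replicate 1 and 9138 reads (14591 CPM) in replicate 2. Slc25a3, which imports phosphate for ATP synthesis, had 1053 reads (962 CPM) and 549 reads (877 CPM). Slc25a5, the ADP/ATP carrier of most dividing and non-muscle tissues, had 493 reads (450 CPM) and 692 reads (1105 CPM). The libraries lay close together for Slc25a3, whereas for Slc25a5 replicate 1 was below and replicate 2 above the level of Slc25a3. Slc25a31, the ADP/ATP carrier of the testis, had no read in either library. Slc25a25, a calcium-regulated carrier that exchanges ATP-Mg for phosphate, had 72 and 52 reads (74.4 ± 12.2 CPM), and Slc25a23, its paralog, had 26 and 6 reads. The other ATP-Mg/phosphate carriers, Slc25a24, Slc25a41 and Slc25a54, had none. Of the reads of this group of 5 paralogs, Slc25a25 held 73.5% in replicate 1 and 89.7% in replicate 2.

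The carriers of the malate-aspartate shuttle were read mostly from 1 paralog each. Slc25a11, the oxoglutarate/malate carrier (chromosome 11, 70644196 to 70647479), had 557 reads (509 CPM) in replicate 1 and 240 reads (383 CPM) in replicate 2. Slc25a12, the aspartate/glutamate carrier of muscle and brain (chromosome 2, 71271063 to 71367749), had 376 reads (344 CPM) and 171 reads (273 CPM). Slc25a13, the aspartate/glutamate carrier that prevails in liver, had 2 reads and 0 reads, so Slc25a12 held 99.5% and 100% of the reads of the pair. These paralogs share 71.8% of 2015 aligned coding bases. Slc25a10, the dicarboxylate carrier, had 14 and 3 reads, and Slc25a11 held 97.5% and 98.8% of the reads of that pair. Of the Slc25a10 reads, 2 in each library lay on models that reach or lie outside the annotated span of the gene. The citrate carrier Slc25a1 had 5 and 3 reads, and the oxodicarboxylate carrier Slc25a21 had 1 read in replicate 1 alone. The enzymes that work with the shuttle were detected as well, with Mdh2, the mitochondrial malate dehydrogenase, at 1338 and 1316 CPM and Got1, the cytosolic aspartate aminotransferase, at 297 and 208 CPM. The 12 listed enzymes that use what the carriers move had reads in both libraries in 12 of 12 cases.

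Amino acid carriers other than Slc25a12 were low. Slc25a44, which carries branched-chain amino acids, had 30 and 18 reads (28.1 ± 0.943 CPM). Of these, 13 in each library lay on a single-exon model of the genomic class (overlapping the gene without its splicing), listed with a length of 2 bases at the 3′ end of the gene, and its level was 11.8 CPM without genomic-class models and 9.13 CPM with annotated models alone. Slc25a22, a glutamate carrier, had 37 and 5 reads (20.9 ± 18.3 CPM). Slc25a15, the ornithine carrier, had 23 and 6 reads, Slc25a38, the glycine carrier needed for haem synthesis, had 11 and 7 reads, and Slc25a29, a carrier of basic amino acids, had 17 and 2 reads. Slc25a2, the paralog of Slc25a15, had 1 read in replicate 1 alone, and Slc25a18, the second glutamate carrier, had none. Of the 9 genes on the amino acid list, 6 had reads in both libraries.

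Each of the 10 carriers of carnitine, cofactors and other nucleotides had reads in both libraries, and their summed level was 192 ± 12.3 CPM. Slc25a20, the carnitine/acylcarnitine carrier (chromosome 9, 108662088 to 108684641), had 46 and 18 reads (35.4 ± 9.39 CPM), and Slc25a51, the carrier of NAD, had 30 and 21 reads (30.5 ± 4.33 CPM). The listed carnitine enzymes were more abundant than Slc25a20. Cpt1b, the muscle carnitine palmitoyltransferase of the outer membrane, had 195 and 148 CPM. Cpt2, a second carnitine palmitoyltransferase, had 140 and 62.3 CPM, and Crat, carnitine acetyltransferase, had 645 and 358 CPM. Slc25a16, linked to coenzyme A transport, had 20 and 10 reads (17.1 ± 1.63 CPM). Its partner in that role, Slc25a42, had 8 and 5 reads. The pyrimidine nucleotide carriers Slc25a33 (26 and 9 reads) and Slc25a36 (11 and 9 reads) shared their reads, with 26 of 37 reads on Slc25a33 in replicate 1 and 9 of 18 in replicate 2. Slc25a17 of the peroxisome, Slc25a32, the folate and FAD carrier, and Slc25a26, the S-adenosylmethionine carrier, had between 1 and 12 reads per library.

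The iron and glutathione carriers had 1 higher member per pair. Slc25a39, needed for mitochondrial glutathione import, had 46 and 29 reads (44.2 ± 3.03 CPM) and held 93.9% and 90.6% of the reads it shared with its paralog Slc25a40. Slc25a28, mitoferrin-2, had 20 reads in both libraries (18.3 and 31.9 CPM) and held 95.2% and 87.0% of the mitoferrin reads. Slc25a37, mitoferrin-1, which serves developing red cells, had 1 and 3 reads.

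Of the remaining members, Slc25a46, a carrier-like protein of the outer membrane that acts in mitochondrial dynamics (chromosome 18, 31556111 to 31609911), had 63 and 21 reads (57.6 and 33.5 CPM). Slc25a34, Slc25a35, Slc25a45 and Slc25a47 had between 1 and 6 reads per library. The genes Slc25a14, Slc25a27 and Slc25a30, which resemble uncoupling proteins, had 4, 3 and 3 reads in replicate 1 and 0 in replicate 2. Slc25a53 had 2 reads in replicate 1 alone. Slc25a43 and Slc25a48 had no read in either library. Among family members under other symbols, Mtch1, Mtch2 and Ucp3 had higher mean levels than all but 5 of the 33 members. Ucp3, the uncoupling protein of skeletal muscle, had 161 and 40 reads (147 and 63.9 CPM), Ucp2 had 33 and 14 reads, and Ucp1, the uncoupling protein of brown fat, had none. Mtch1 and Mtch2, carrier-like proteins of the outer membrane, averaged 249 ± 60.4 and 149 ± 10.5 CPM. The pyruvate carrier, which belongs to another family, was read at 225 ± 8.67 CPM for its subunit Mpc1 and 234 ± 41.6 CPM for Mpc2.

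The order of the levels rests on a few clear steps. With the members ranked by mean CPM, the 2 libraries of a gene and the 2 of its lower neighbour did not overlap at 4 of 32 steps, among them Slc25a4 over Slc25a3, Slc25a11 over Slc25a12 and Slc25a12 over Slc25a25. The remaining 28 neighbours overlapped, among them Slc25a3 with Slc25a5 and Slc25a5 with Slc25a11. A long read counts a cDNA once whatever its length, so CPM was not divided by length. Per kilobase of mean model length, Slc25a4 stood at 6835 CPM, Slc25a3 at 681, Slc25a5 at 627, Slc25a11 at 261, Slc25a12 at 48.8 and Slc25a25 at 29.1, which is the same order for these 6. The place of Slc25a5 depended on the models counted. With annotated models alone its level was 221 CPM, below Slc25a11 at 411 CPM and close to Slc25a12 at 225 CPM. There the libraries of Slc25a5 (234 and 208 CPM) overlapped those of Slc25a12 (254 and 196 CPM). Without genomic-class models Slc25a5 was at 223 CPM, against 439 CPM for Slc25a11 and 287 CPM for Slc25a12.

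The phosphate carrier used exon 3A in nearly all reads. Of the reads on models that span the exon and hold either form, 969 of 1012 in replicate 1 and 474 of 499 in replicate 2 carried exon 3A. These are 95.8% (95% Clopper-Pearson interval 94.3 to 96.9) and 95.0% (92.7 to 96.7), or 95.4% ± 0.538 (SD, n = 2). Exon 3B had 43 and 25 reads, which is 4.63% ± 0.538. The split did not differ detectably between the libraries (two-sided Fisher's exact test, p = 0.511). No read lay on a model with both exons, and none on a model that joined exon 2 to exon 4 without either. A further 4 reads in each library spanned the exon on other models, and 37 and 46 reads lay on models that do not span it. Exon 3A is the form described for heart and skeletal muscle and exon 3B the form of other tissues. The single model Slc25a3-206 accounted for 904 and 437 reads and Slc25a3-201 for 40 and 25.

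**Figure D2:**
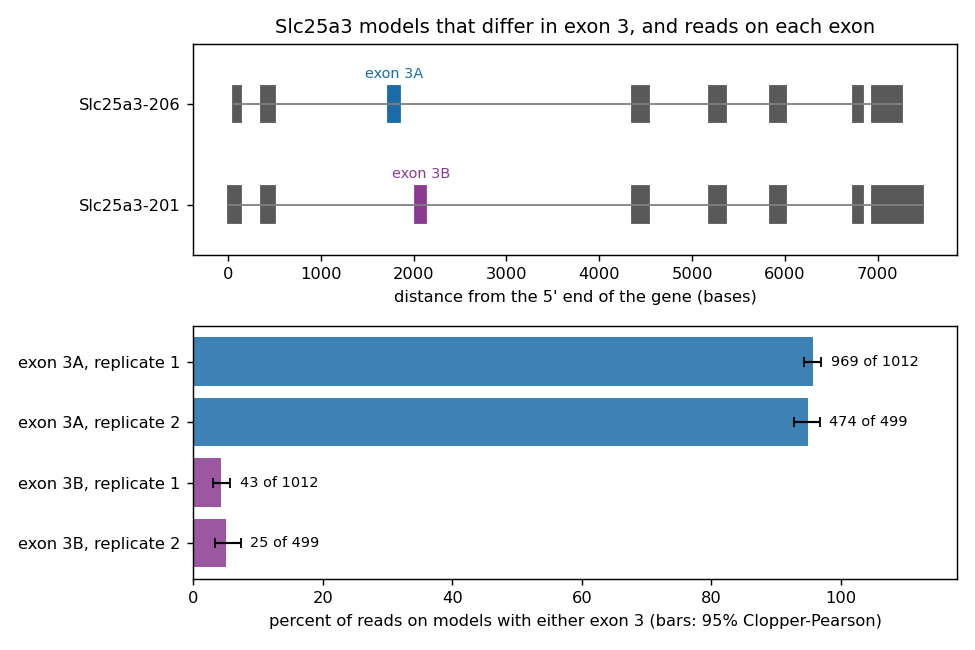
Top, the exons of the models Slc25a3-206 and Slc25a3-201 by distance in bases from the 5′ end of the gene, with exon 3A and exon 3B in colour. Bottom, percent of reads with each exon in each library, with bars for 95% Clopper-Pearson intervals and the reads beside them: exon 3A had 969 of 1012 and 474 of 499 reads.

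Reads were called complete where their model was annotated, or unannotated but spliced with no partial match. A depth of at least 50 such reads in each library was reached by 5 members. Complete reads were 97.5% and 93.3% of all reads of Slc25a11, 94.2% and 88.3% of Slc25a3 and 83.8% and 67.3% of Slc25a4. They were 74.7% and 71.9% of Slc25a12 and 52.1% and 18.8% of Slc25a5. Apart from the choice of exon 3, the complete reads of each of the 5 lay on nearly 1 spliced form. Slc25a4-201 held 99.7% and 99.8% of them for its gene, Slc25a5-201 99.6% and 99.2%, Slc25a12-206 98.9% and 100%, Slc25a11-201 96.5% and 96.0%, and Slc25a3-206 91.1% and 90.1%. The median over the 5 was 99.4%, beside 95.5% over the 1044 genes of that depth. No leading share of a member differed between the libraries by Fisher's exact test with Benjamini-Hochberg adjustment, and 0 of 5 had an unadjusted p under 0.05. Over all 960 such genes with more than 1 model, 15 differed (1.56%). An annotated model led in 27 of the 33 members.

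The models of some lower members are described here, and these members were picked out after their values were seen. In Slc25a23, 21 of 26 reads in replicate 1 (80.8%, 60.6 to 93.4) and 5 of 6 in replicate 2 (83.3%, 35.9 to 99.6) lay on a model with the first 9 of the 10 exons of Slc25a23-201 that ends inside the last intron. The last exon of that annotated model lies at 57043711 to 57045663 on chromosome 17, and the last intron was spliced in 1 read and 0 reads. In Slc25a25, the first intron of model Slc25a25-203 was used by 60 of 72 and 37 of 52 reads and that of Slc25a25-205 by 2 and 4. In Slc25a22 the model with most reads was an unannotated combination of known splice sites with 10 exons, with 9 and 3 reads.

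Reads on single-exon models set the ADP/ATP carriers apart from the other abundant members. In Slc25a4 a model that lies in the last exon took 1980 reads in replicate 1 (15.5%, 14.8 to 16.1) and 2935 in replicate 2 (32.1%, 31.2 to 33.1). In Slc25a5 a model of 255 bases within the last exon, of the genomic class, took 233 reads (47.3%, 42.8 to 51.8) and 562 reads (81.2%, 78.1 to 84.1). The same share was 1.42% and 6.38% in Slc25a3, 0.718% and 3.75% in Slc25a11, and 3.99% and 11.7% in Slc25a12. Over the pooled reads of all annotated genes it was 5.76% and 10.2%. The median share of 603 spliced genes with at least 100 reads in each library was lower, at 1.38% and 2.41%. Among these 603 genes, 8.79% and 11.3% had a share at or above that of Slc25a4, and 2.16% and 1.33% one at or above that of Slc25a5. The share was higher in replicate 2 for 5 of 5 members of that depth, and for 456 of the 603 genes (75.6%).

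The spliced reads gave another picture of these paralogs. On models with at least 2 exons Slc25a4 stood at 9887 CPM in replicate 1 and 9904 CPM in replicate 2, and Slc25a5 at 238 and 208 CPM. Slc25a5 then held 2.35% (2.07 to 2.65) and 2.05% (1.72 to 2.43) of the reads of the pair. On single-exon models it held 10.5% (9.28 to 11.9) and 16.1% (14.9 to 17.3). The annotated processed copy listed as Slc25a5-ps had no read in either library.

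**Figure D3:**
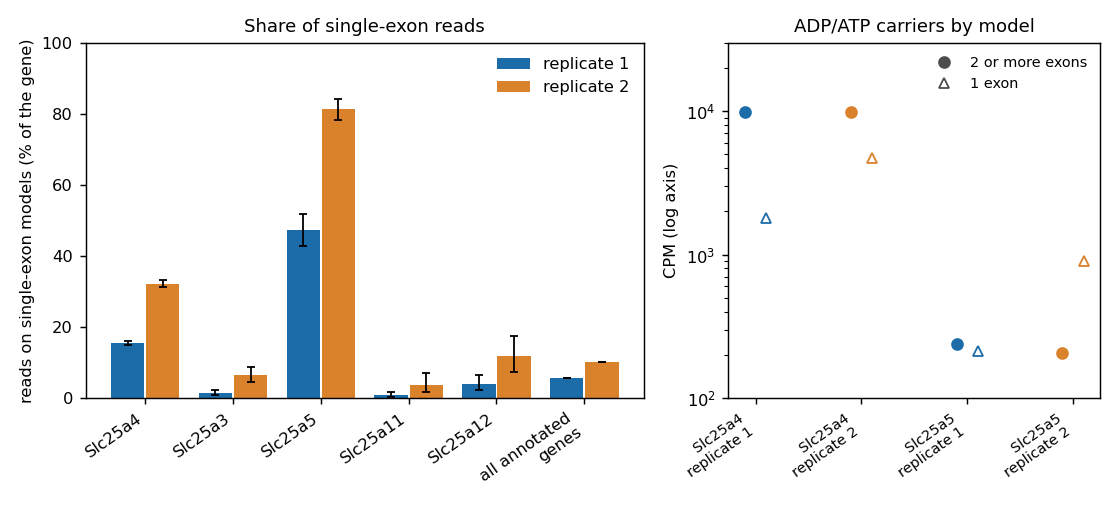
Left, percent of each gene's reads on single-exon models for the 5 members with at least 50 complete reads per library and for all annotated genes, with bars for 95% Clopper-Pearson intervals on the members; the share is higher in replicate 2 throughout and highest in Slc25a5. Right, CPM (log axis) of Slc25a4 and Slc25a5 on models with at least 2 exons (filled circles) and with 1 exon (open triangles): the circles lie close together between libraries and the triangles do not.

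Between the libraries, 4 of the 25 members with at least 10 reads in all differed by Fisher's exact test with Benjamini-Hochberg adjustment over 7955 genes. The background was 1070 of 7955 genes (13.5%), with 6.89% higher in replicate 1 and 6.56% higher in replicate 2, so the members' share was near that of all genes. This test compares the reads of these libraries, not conditions. Slc25a5 was lower in replicate 1 (log2 ratio of replicate 1 over replicate 2 of -1.29, adjusted p = 7.77e-51) and so was Slc25a4 (-0.32, adjusted p = 3.28e-56). Slc25a11 was higher in replicate 1 (0.41, adjusted p = 0.00279), as was Slc25a22 (1.96, adjusted p = 0.00706). With annotated models alone, scaled by library totals, the log2 ratio of Slc25a4 was -0.0037 (adjusted p = 0.991). That of Slc25a5 was 0.17 (adjusted p = 0.585). On that scale both calls rest on reads outside annotated models. The call of Slc25a22 was also lost there (2.13, adjusted p = 0.251). The median log2 ratio of all genes was 0.28 in that setting, and annotated models alone were not tested with TMM or DESeq2 factors. The call of Slc25a11 was lost with TMM factors (0.22, adjusted p = 0.229) and with DESeq2 size factors (0.21, adjusted p = 0.256). Slc25a11 overlaps Rnf167 on the other strand, as Slc25a12, Slc25a16, Slc25a25 and Slc25a46 overlap other genes. The counted models carry a strand, and reads on unannotated opposite-strand loci enter no count of the carriers. How counting used strand is not stated.

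**Figure D4:**
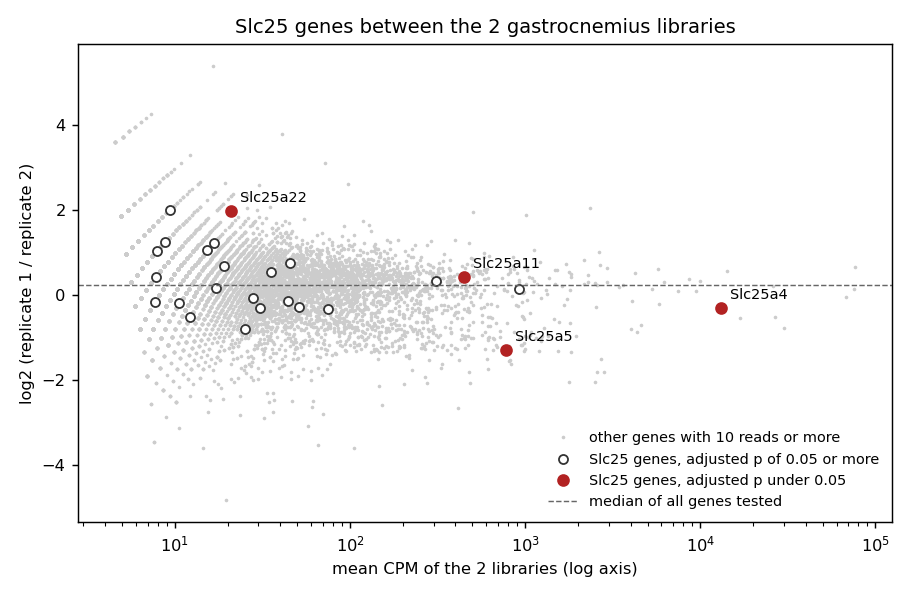
Log2 ratio of replicate 1 over replicate 2 against mean CPM (log axis) for the 7955 genes tested, with Slc25 members as circles, filled where the adjusted p was under 0.05, and a dashed line at the median of all genes. Slc25a4 and Slc25a5 lie below 0, Slc25a11 and Slc25a22 above the line, and the remaining members are open circles.

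The median log2 ratio was 0.16 for the 25 members and 0.24 for all genes tested. With TMM or DESeq2 factors the median of all genes was 0.05 or 0.04, and the genes called higher in replicate 1 and in replicate 2 numbered 266 and 663, or 249 and 679, in place of 548 and 522. Transcript length moved with the ratio: its median was -0.14, 0.34 and 0.44 over the shortest, middle and longest of 3 equal bins of all genes, and 0.13, 0.16 and 0.33 over the 9, 9 and 7 members among them. The part of length in the members' ratios was not tested.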

How the data were processed

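For each of the 2 gastrocnemius libraries the authors deposited a table of whole-number read counts for the transcript models, with the number of exons, length and class of each model, and an annotation of the models. Per the deposited descriptions, the counts were made from an alignment on mm10 with GENCODE M21. The aligner and its version are not given in the sources used.

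Counts were used as deposited. ERCC reads were set aside, all models of a gene were summed, and CPM took the remaining reads as the total. Models were joined between libraries by gene, strand and intron chain. Gene spans and sequences are those of GENCODE M21. Annotated Slc25 genes are named, except 1 member that is not reported here, and those with at least 10 reads in both libraries are given with their values, and the models of members with at least 50 complete reads per library are described. The members and the gene lists were chosen with earlier results of these data known.

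With 1 group there is no test between conditions. Libraries were compared by two-sided Fisher's exact tests (scipy 1.17.1) on genes with at least 10 reads, adjusted by Benjamini-Hochberg at 0.05, and scaling factors came from edgeR 4.0.16 and DESeq2 1.42.0. The test was checked on simulated counts that held counting error only, so the check does not cover other differences between libraries. Intervals and the limit of 3 reads describe counting error only, as the reads hold no molecular identifiers.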

Additional observations from a re-analysis of the deposited data

Results flagged for a closer look

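Reads on unannotated loci of the opposite strand, which enter no count of the carriers, lay within the span of some members at more than the 3 reads that a count of 0 allows. Slc25a46 had 12 such reads in replicate 2, where its own strand had 21 reads, and Slc25a20 had 8 in replicate 2, where its own strand had 18. Slc25a12 had 6 in replicate 1 and 4 in replicate 2, and Slc25a3 had 5 in replicate 1. Over the 47 Slc25 genes these reads numbered 20 in replicate 1 and 35 in replicate 2.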

How the results depend on the processing

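With annotated models alone, the family total was 11827 CPM in place of 16110, the median member level 9.13 CPM in place of 14.7, 2 members differed between libraries in place of 4 (Slc25a11 was in both sets and Slc25a3 was gained), and the median leading share was 100% in place of 99.4%. Slc25a5 changed direction between libraries there (log2 ratio 0.17, adjusted p = 0.585) and with genomic-class models left out (0.19, adjusted p = 0.501), where Slc25a12 was gained as a call. Per kilobase, the median member level was 5.97 CPM. A minimum of 10 reads in each library left 14 members of 33, and a minimum of 2 reads per model gave a median leading share of 99.8%. Without 1 replicate, the family total ranged over 14505 to 17715 CPM, the median member level 11.2 to 18.3 CPM, the members detected 33 to 40, the exon 3A share 95.0% to 95.8%, the annotated share of member reads 65.7% to 82.8%, and the median leading share 98.9% to 99.2%. The exon 3A share kept its value within 1 SD under the alternatives run. Of 14 members with at least 10 reads in both libraries, 9 moved by more than 1 SD with annotated models alone and 2 without genomic-class models. Counts limit the 19 other members, whose levels rest on fewer than 10 reads in at least 1 library. No paired analysis was possible because the series holds a single group.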
